A study of Mus musculus with 285 samples.

Results

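The 58 genes described here encode molecular chaperones and their helpers: the Hsp70 and Hsp110 families (symbols starting Hspa and Hsph), the Hsp90 family, the small heat shock proteins (Hspb), the mitochondrial chaperonin pair (Hspd1 and Hspe1), the J-domain proteins (Dnaja, Dnajb and Dnajc) and the Bag co-chaperones. They were taken by symbol, as every gene with one of these prefixes followed by a digit or letter, provided that 80% or more of the arrays gave a value. All 58 matching genes passed that filter, out of 11622 named genes on the array, and they were covered by 92 probes. The annotation used named no probe for Hspa1b, Hsp90ab1 or Hspb8, which are not analysed here. Hspa1a and Hspa1b are near-identical copies whose transcripts an oligonucleotide can fail to separate, so every Hspa1a value below may hold both.

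The samples were skeletal muscle of 285 F2 mice, male and female, bred by crossing C57BL/6J with C3H/HeJ, in either direction, and mating the F1 offspring with each other. The mice received chow with 4% fat up to 8 weeks of age and then, for 12 weeks, Western diet holding 42% fat plus 0.15% cholesterol, and were killed at 20 weeks after fasting for 12 hours. RNA of each mouse, in Cy3, was hybridised on a 2-colour array against a common pool, in Cy5, mixed from equal parts of all samples. The labels give no treatment, genotype or sex to single mice and do not name the muscle, so the mice form 1 group, every comparison is of variation among mice, and single samples differ in their labels by a mouse number from 51 to 362 and, for 4 arrays, by a (2) at the end of the title. The labels do not say what that mark stands for, each of the 285 arrays has a mouse number of its own, and without the 4 marked arrays 9 members were called along Hspa1a, as with them.

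Chaperones bind unfolded proteins and help them fold, and cells raise many of them when proteins unfold, through the transcription factor HSF1 in the cytosol and through the unfolded protein response in the endoplasmic reticulum. Hsp70 proteins work in a cycle in which J-domain proteins deliver substrates and stimulate ATP hydrolysis, and Hsp110 and Bag proteins release the nucleotide. In skeletal muscle, small heat shock proteins and Bag3 are known for their place at the sarcomere, where they hold filament proteins under contraction.

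Values are log2 ratios of mouse over pool, with the deposited numbers read as log10. The labels give the dyes but not the sign or base of the ratio. Pairs of arrays correlated from -0.745 to 0.801 over all probes, as single mice can lie on either side of a pool of all mice. The mean linear ratio of the Y-linked gene Eif2s3y over all mice was 0.796 with the sign kept and 23.2 with the sign turned, where a pool of all samples gives about 1, and for Kdm5d these were 0.942 and 3.43. If the sign were turned, high and low would swap below, while SDs and correlations would stay. In base 2 the log2 values would shrink by 1 common factor. A ratio holds no level, so members cannot be ranked by abundance, and the muscle label cannot be checked against defining muscle genes. In bulk tissue, fewer cells of a type and less RNA per cell cannot be told apart.

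Chaperone genes as a whole varied among mice about as much as other genes did, and a few members stood far above the rest. The SD over 285 mice had a median of 0.229 log2 units over the 58 members, against 0.21 over all 11622 named genes. Of the members, 7 (12.1%) lay in the top 10% of SD among named genes and 23 (39.7%) at or below their median. Members that stayed within 2-fold of the pool in every mouse numbered 39. Of the members, 46 had 1 probe and 12 were means of several. Where such probes disagree their mean can vary less than single probes do, so SDs and ranges are not fully comparable between members. The inducible cytosolic chaperones had a median SD of 0.462 (8 genes) and the muscle small heat shock group, Bag3 included, 0.379 (6 genes). Members of the endoplasmic reticulum had 0.247 (9 genes), mitochondrial members 0.239 (7 genes), constitutive cytosolic members 0.172 (17 genes) and members known mainly from testis 0.15 (5 genes). The inducible list holds Hspa1a, Hspa8, Hsph1, Hsp90aa1, Dnaja1, Dnajb1, Hspb1 and Bag3. Hspb1 and Bag3 count in both of the first groups, and 8 members are in no list.

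**Figure D1:**
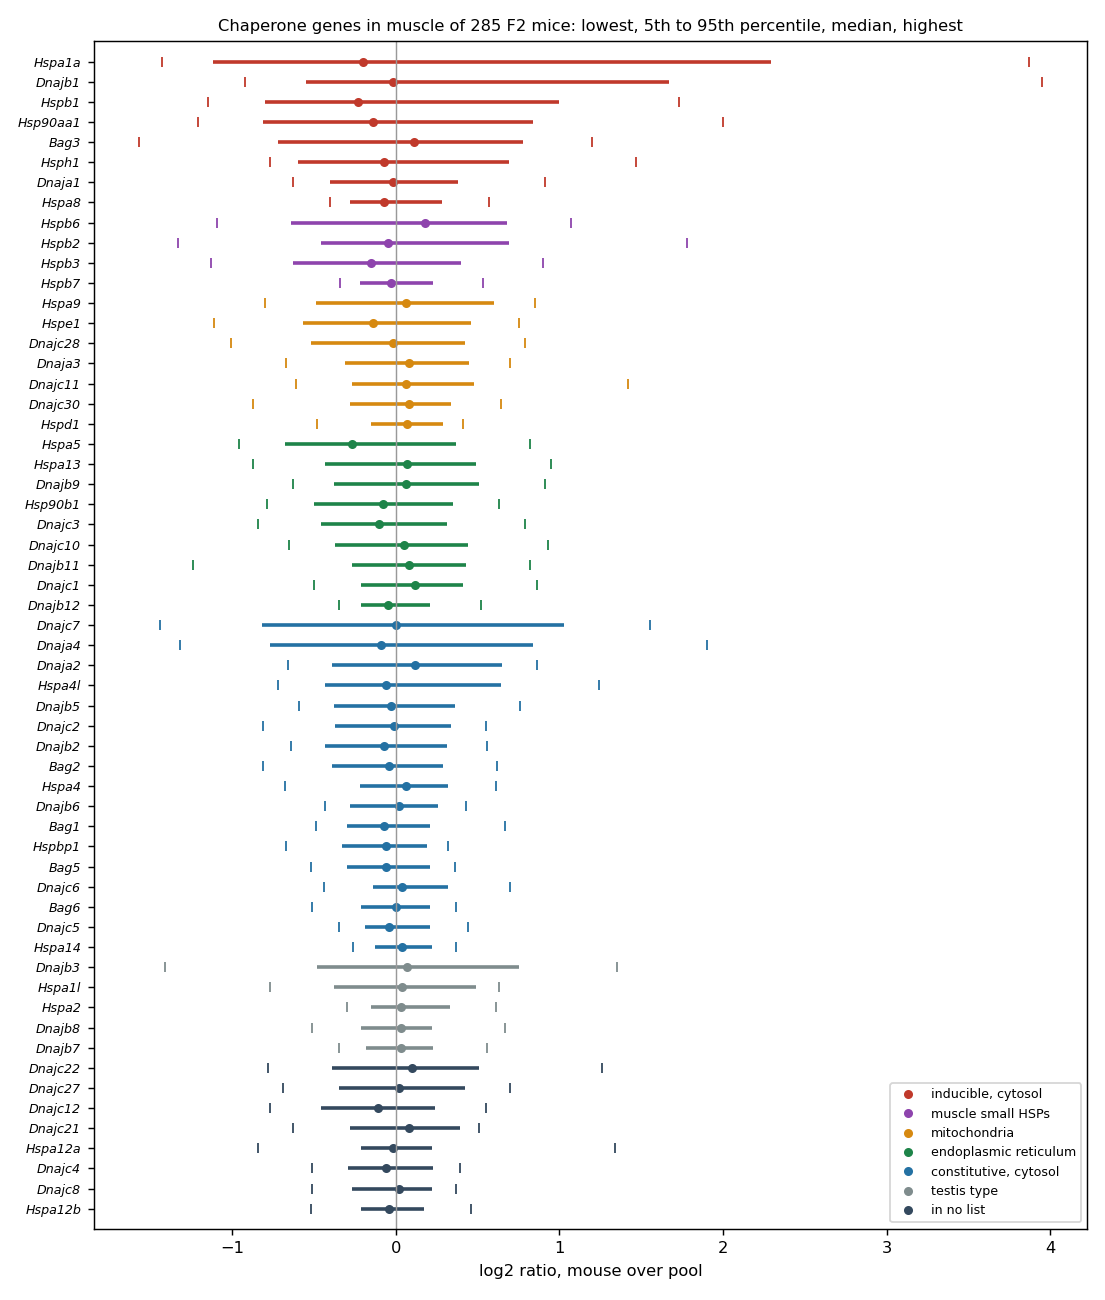
Each row is 1 chaperone gene, with its log2 ratio of mouse over pool over 285 mice on the horizontal axis. Dots mark the median, bars the range from the 5th to the 95th percentile and ticks the lowest and highest mouse, and colours mark the groups; Hspa1a, at the top, runs from -1.43 to 3.87, while Hspa14 has the smallest SD, 0.106.

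The inducible cytosolic chaperones had the largest median SD of the groups and the highest median r among themselves, although not every one of them varied widely. Hspa1a, the stress-inducible Hsp70, ranged from -1.43 to 3.87 with a median of -0.20 (SD 1.04, n = 285 mice). It lay at least 2-fold above the pool in 47 mice and at least 2-fold below in 30, and 174 mice (61.1%) were below the pool, so its distribution had a long upper tail. Dnajb1, the J-domain protein that serves inducible Hsp70 in the cytosol, ranged from -0.92 to 3.95 with a median of -0.02 (SD 0.72). It was at least 2-fold above the pool in 32 mice and 2-fold below in 0. Mouse number 281 had the highest value of both genes. Of the 47 mice high in Hspa1a and the 32 high in Dnajb1, 28 were the same animals. Hspb1 (Hsp25, a small heat shock protein that binds actin and unfolded proteins) ranged from -1.15 to 1.73 with a median of -0.23. Hsp90aa1, the inducible cytosolic Hsp90, ranged from -1.21 to 2.00 with a median of -0.14. Both tails were longer above the pool than below. Bag3, which links Hsp70 to small heat shock proteins, ranged from -1.57 to 1.20 with a median of 0.11 and had its longer tail below the pool. Hsph1, the inducible Hsp110, ranged from -0.77 to 1.47 with a median of -0.07. The narrowest of the group were Dnaja1, from -0.63 to 0.91 (SD 0.235), and Hspa8, from -0.40 to 0.57 (SD 0.169). Both stayed within 2-fold of the pool in every mouse.

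Short 2-repeat matches to the heat shock element, which HSF1 is known to bind, were found before Hspa1a and the members Hspb1 and Dnaja4. They lie in the 250 bases before annotated starts and are shown so that the letters can be read beside the values. None of the windows shown here held the 3-repeat element described below, and binding of HSF1 was not tested. Sequences are RefSeq's for GRCm38.p6 and run 5′ to 3′ on the gene's strand, with GAANNTTC or its other strand TTCNNGAA in capitals. Hspa1a lies on the minus strand at chr17:34972157-34972406, Hspb1 on the plus strand at chr5:135887669-135887918 and the second annotated start of Dnaja4, a J-domain protein of the cytosol, on the plus strand at chr9:54699309-54699558.
Hspa1a: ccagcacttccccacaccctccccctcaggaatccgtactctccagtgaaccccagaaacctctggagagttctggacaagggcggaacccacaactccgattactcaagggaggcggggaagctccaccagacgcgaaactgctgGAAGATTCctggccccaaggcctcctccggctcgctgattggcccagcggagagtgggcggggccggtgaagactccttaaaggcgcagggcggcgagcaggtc
Hspb1: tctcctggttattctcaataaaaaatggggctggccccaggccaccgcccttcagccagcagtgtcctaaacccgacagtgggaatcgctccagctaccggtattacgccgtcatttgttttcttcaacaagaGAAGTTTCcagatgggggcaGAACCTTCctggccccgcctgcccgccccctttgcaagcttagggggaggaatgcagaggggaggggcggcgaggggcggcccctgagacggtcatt
Dnaja4: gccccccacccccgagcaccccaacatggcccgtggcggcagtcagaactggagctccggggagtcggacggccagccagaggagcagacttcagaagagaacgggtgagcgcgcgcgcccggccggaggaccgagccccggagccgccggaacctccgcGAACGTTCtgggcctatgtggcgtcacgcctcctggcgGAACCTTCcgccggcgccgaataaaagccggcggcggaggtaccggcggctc
This 2-repeat element is common: 12.8% of 32851 promoter windows of the same length held it, and 14 of the members' 63 windows (22.2%) did, from 12 of the 47 members with a window. Of the 9 members called along Hspa1a below, 7 have a window. Hspb1, Dnaja4 and Dnaja1 held the element, while Dnajb1, the member most like Hspa1a, Bag3, Hspb7 and Hspa2 held no copy, which says only that these letters are not in those 250 bases.

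Along Hspa1a, 9 of the other 57 members (15.8%) were called, all higher where Hspa1a was higher, against 0.846% of all 21511 features tested (0.841% higher). The call required limma's adjusted p under 0.05 and a partial r of at least 0.3 in size, with the run of 20 mouse numbers in the fit. For each log2 unit of Hspa1a, Dnajb1 was higher by 0.54 ± 0.02 log2 units (SE; partial r = 0.826, limma adjusted p = 1.47e-65). Hspb1 was higher by 0.36 ± 0.02 (partial r = 0.669), Dnaja4 by 0.34 ± 0.03 (0.630) and Hsp90aa1 by 0.28 ± 0.02 (0.685). Slopes below 0.2 belonged to Bag3 (0.158 ± 0.0249), Dnaja1 (0.108 ± 0.0128), Hspa8 (0.0654 ± 0.00887), Hspb7 (0.0571 ± 0.00766) and Hspa2 (0.0537 ± 0.00845). Dnaja1 is a cytosolic J-domain protein, Hspa8 the constitutive Hsp70 (Hsc70), Hspb7 a small heat shock protein of heart and muscle, and Hspa2 an Hsp70 known best from testis. The smallest of the 9 partial r, 0.36, was that of Bag3.

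By group, 6 of 7 other inducible cytosolic members were called higher along Hspa1a. The median partial r of the 7 was 0.459, against a median of -0.0143 over all features. The exception was Hsph1, whose partial r of 0.256 was short of 0.3 although its limma adjusted p was 0.00162. Hspa8, though the constitutive Hsp70, was on the inducible list and counts among the 6 (partial r = 0.411). Of 7 mitochondrial and 9 endoplasmic reticulum members none was called by limma, with median partial r of 0.0428 and 0.00874. At an unadjusted p under 0.05, with no minimum on r, 1 of the 7 and 1 of the 9 passed, against 14.1% of all features. Of 17 constitutive cytosolic members, 7 (41.2%) had an unadjusted p under 0.05 and 2 a limma adjusted p under 0.05. Of the 5 testis members, 4 had an unadjusted p under 0.05. Dnaja4 alone of the 17 was called, at a partial r of 0.630, above those of Dnaja1, Hspa8 and Bag3. The contrast between the inducible and constitutive groups thus depends in part on how genes were listed. Outside the family, 1 of 20 measured HSF1 co-chaperone genes rose, the small heat shock protein gene Cryab (partial r = 0.480), and 9 of 15 immediate early genes rose, Atf3, Egr1 and Fos (0.688) in front. Of 56 markers of macrophages, lymphocytes, fat, tendon, endothelium, blood, skin and liver none was called by limma, although 3 had an adjusted p under 0.05 at a partial r short of 0.3 and 9 an unadjusted p under 0.05. Tendon markers made up 6 of those 9, and the 7 tendon markers had a median partial r of 0.162. Of 10 slow fibre genes, 1 was called, Ankrd2 (partial r = 0.470), and 9 had an unadjusted p under 0.05, with a median partial r of 0.162. The part of tendon and slow fibre genes in the result was not tested. The named genes outside the family that were most like Hspa1a were Atf3, a stress-induced transcription factor (partial r = 0.845), Enah, an actin regulator (0.787), Rrad, a small GTPase (0.771), Egr1, an immediate early transcription factor (0.763), and Xirp1, an actin-binding protein of muscle (0.758). SRXN1 (0.753), CLIP3 (0.748), Map3k8 (0.747), Fosl1 (0.732) and the ankyrin-repeat gene Ankrd1 (0.696) followed.

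**Figure D2:**
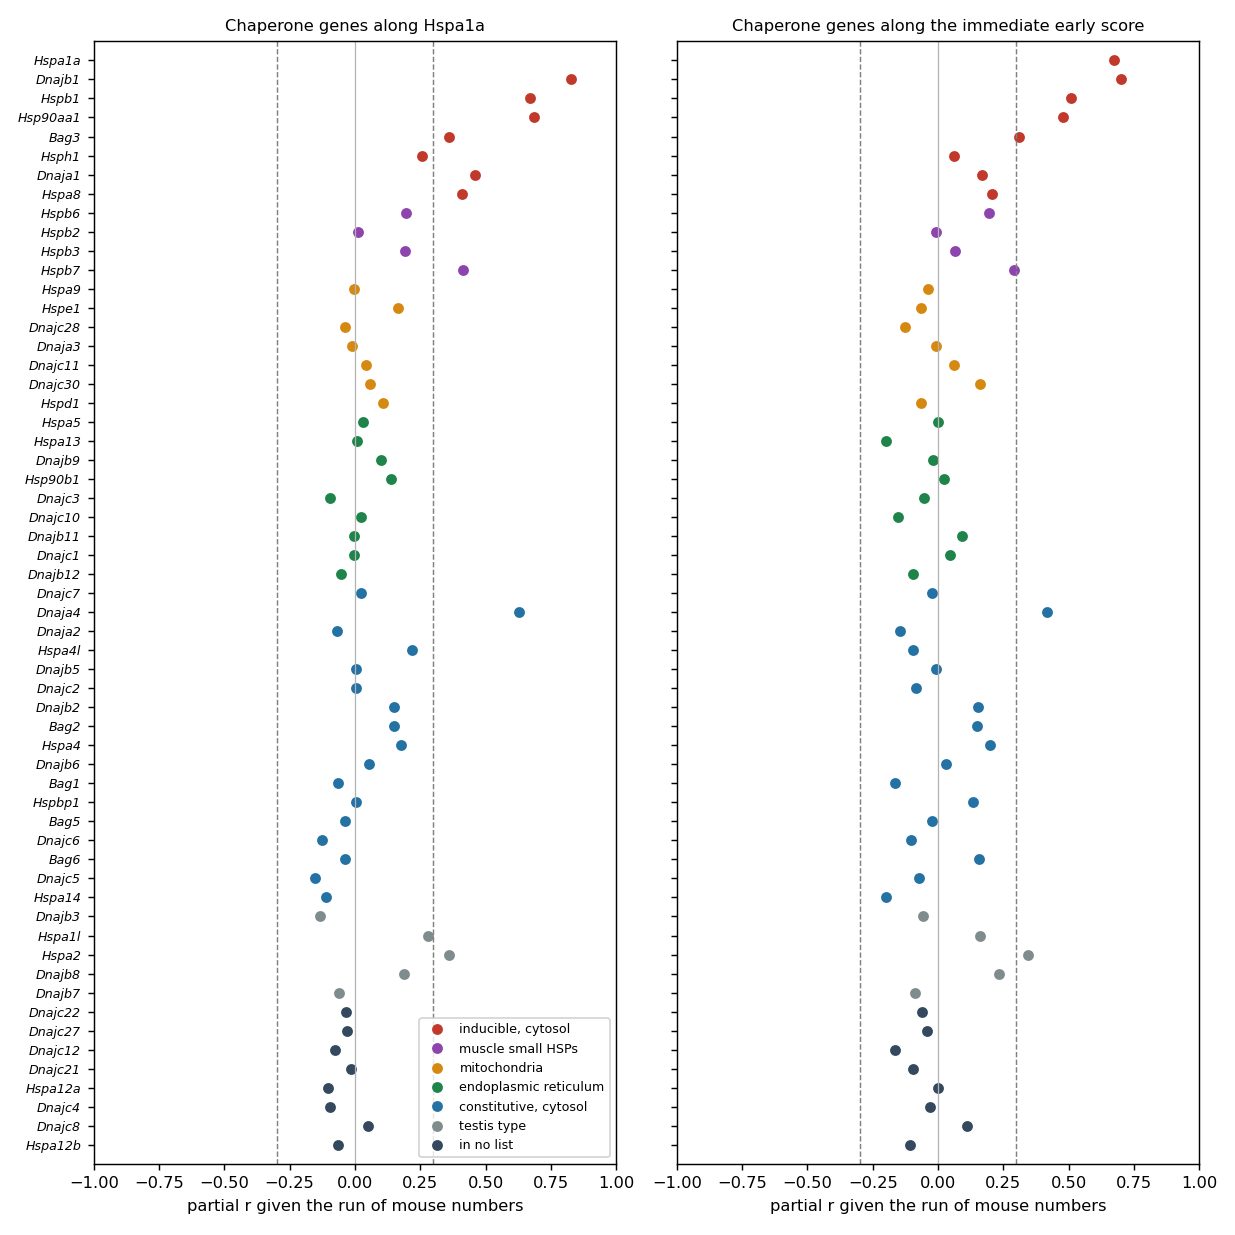
Each dot is 1 chaperone gene and its partial correlation, given the run of mouse numbers, with Hspa1a (left) or with the immediate early score (right) over 285 mice. Dashed lines mark the size of 0.3 used for calls; 9 members in the left panel and 7 in the right lie beyond the upper line, and most dots of the mitochondrial and endoplasmic reticulum groups sit near 0.

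The pairs of members were examined by Pearson r and Spearman rho over 285 mice, with two-sided permutation tests of 100000 shuffles adjusted over 15 pairs. In 10 of the 15 pairs the adjusted p for r was under 0.05. The share of all pairs of named genes that would pass was not computed. Their r had a 5th and 95th percentile of -0.365 and 0.413, and Hspa1a with Hspa8 and with Hsph1 lay inside that range. Hspa1a and Dnajb1 correlated at r = 0.840 and rho = 0.743, at r = 0.823 without the 2 mice farthest from the Hspa1a median and at 0.826 once the means of the number runs were removed. Hspa1a correlated with Hspb1 at r = 0.632 and rho = 0.503 (0.605 without 2 mice, 0.669 with run means removed) and with Hsp90aa1 at r = 0.614 and rho = 0.437 (0.575 and 0.685). With Bag3 it correlated at r = 0.469 and rho = 0.423 (0.442 and 0.36), with Hspa8 at r = 0.357 and rho = 0.257 (0.326 and 0.411) and with Hsph1 at r = 0.317 and rho = 0.268 (0.3 and 0.256). Each of these 6 pairs had a permutation p of 1e-05 for r, the smallest that 100000 shuffles can give, and an adjusted p of 1.87e-05. Hspa1a tracked each of these 6 partners with and without the run means.

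Across compartments the correlations of Hspa1a were weaker and depended on the treatment of array-wide variation. With Hspa5, the Hsp70 of the endoplasmic reticulum, r was -0.121 and rho -0.0906 (permutation p = 0.0408 and 0.128, adjusted 0.0556 and 0.147), -0.108 without 2 mice and 0.0299 with run means removed, so its sign did not hold within runs. With the first 5 array-wide components removed it was 0.248 (adjusted p = 5e-05), a call in the other direction. With Hspd1, the mitochondrial Hsp60, r was 0.262 and rho 0.238 (adjusted p = 3.33e-05 and 5e-05) and 0.228 without 2 mice. It was 0.108 with run means removed (permutation adjusted p = 0.0837), which did not pass. With the first 5 array-wide components removed it was 0.179 (permutation adjusted p = 0.00271), which passed. The value also depended on the Hspd1 probes, at -0.0617 with the largest-SD probe of each gene and 0.314 with concordant probes only.

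Among all pairs of members, with run means removed, the median r was 0.0222 over 1653 pairs, against -0.00605 over all pairs of named genes. The 5th and 95th percentile were -0.324 and 0.412 for pairs of members, and -0.342 and 0.387 for pairs of named genes. Over the 28 pairs of inducible cytosolic members the median was 0.460, and the 5th and 95th percentile of r were 0.202 and 0.679. The muscle small heat shock group had 0.204 (15 pairs), the endoplasmic reticulum 0.0939 (36 pairs), mitochondria 0.0901 (21 pairs) and the constitutive cytosolic group 0.0443 (136 pairs). Among pairs without Hspa1a, 3 named after their values were seen were Hsph1 with its relative Hspa4l, also an Hsp110, at 0.702, Hsph1 with the J-domain gene Dnajb2 at 0.630, and Bag3 with Dnaja4 at 0.613. These r are over 285 arrays that share 1 pool, and members of 1 array share its hybridisation.

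**Figure D3:**
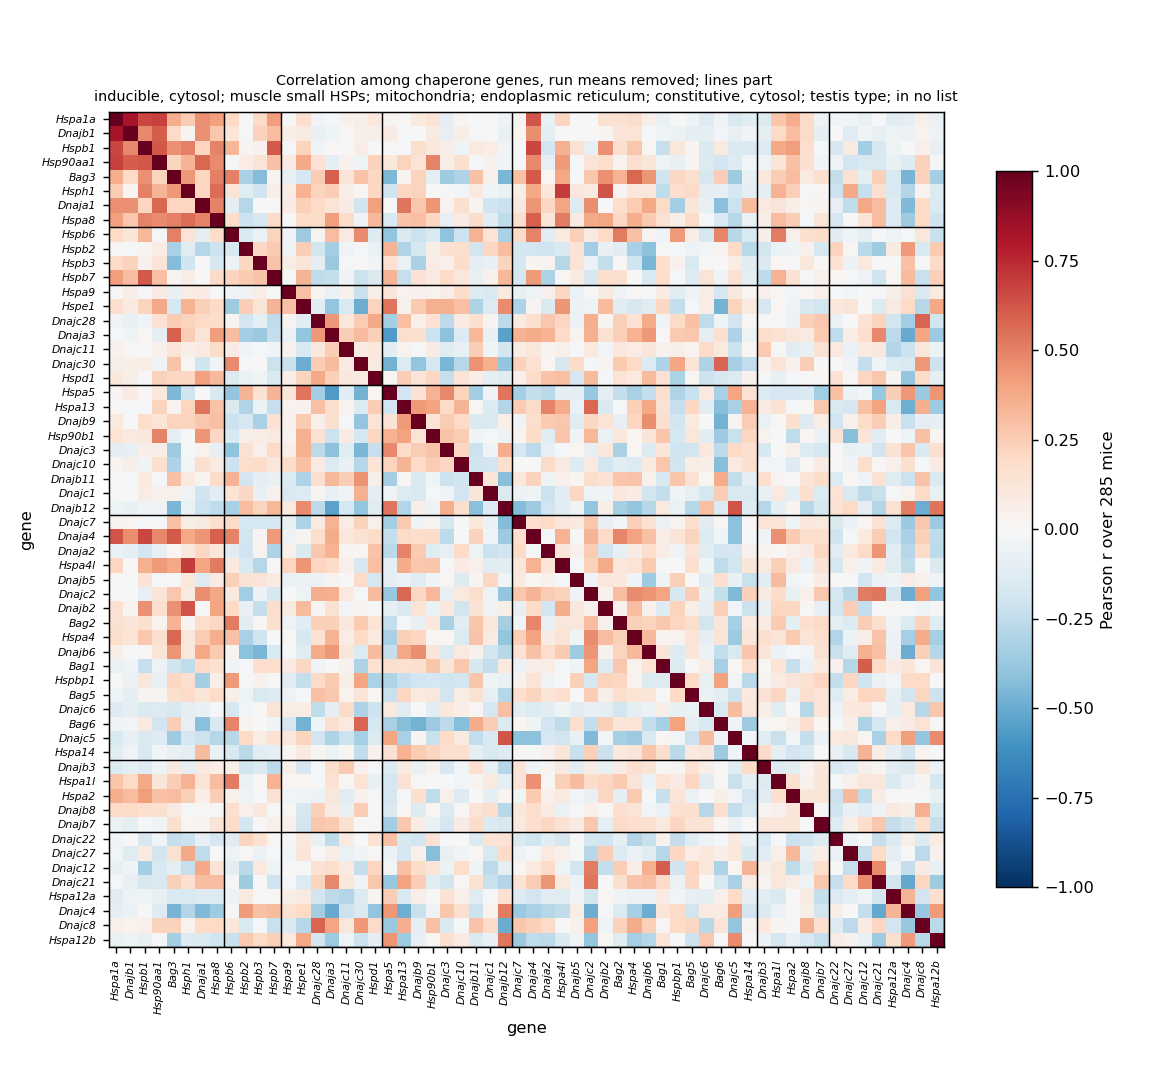
Pearson r over 285 mice, run means removed, between every pair of the 58 chaperone genes, ordered by group and within a group by SD; lines part the groups. The red block at the upper left holds the inducible cytosolic members, with a median r of 0.460, and no other group forms such a block.

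Among the muscle small heat shock proteins, how closely Hspb6 and Hspb7 moved together depended on the treatment of array-wide variation. Hspb6 (Hsp20) ranged from -1.09 to 1.07 with a median of 0.18, Hspb2, which binds the myotonic dystrophy kinase, from -1.33 to 1.78 with a median of -0.05, and Hspb3 from -1.13 to 0.90 with a median of -0.15. Hspb7 had the smallest range of the group, from -0.34 to 0.53. Hspb6 correlated with Hspb7 at r = 0.0763 (adjusted p = 0.229) and rho = 0.153 (adjusted p = 0.0137), at 0.0994 without 2 mice and at 0.222 with run means removed (adjusted p = 0.0002 for r). This pair stood at r = 0.423 with the first 5 array-wide components removed (adjusted p = 1.36e-05). It stood at 0.510 in the 142 higher-numbered mice (adjusted p = 2.5e-05) and at 0.0481 in the 143 lower-numbered ones (adjusted p = 0.61); the difference between these was not tested. Hspb2 and Cryab, the αB-crystallin gene, are a head-to-head pair in the mouse genome. They correlated at r = 0.0863 and rho = 0.0952 (adjusted p = 0.182 and 0.134), 0.0854 without 2 mice and 0.106 with run means removed. With the first 5 array-wide components removed their r was 0.0651 (permutation adjusted p = 0.273).

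Along Hspb6, 14 of 57 other members (24.6%) were called, 10 higher and 4 lower, against 22.2% of all features (10.5% higher and 11.6% lower), so the share of members was near the background. The highest partial r belonged to Bag2, an inhibitor of the ubiquitin ligase CHIP (0.521), Hspa1l (0.510), Bag3 (0.502), Dnaja4 (0.496) and Bag6 (0.487). The lowest belonged to Dnajc3 (-0.401), Hspa5 (-0.394) and Hspe1 (-0.352). With the first 5 array-wide components removed from the tested genes, 4 members were called, and among the 142 higher-numbered mice 7 were. Of the 56 cell type markers, 4 rose and 6 fell along Hspb6, among them 3 of 8 endothelial markers higher and 3 of 13 macrophage markers lower, and their part in the result was not tested.

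Along a slow fibre score, the mean z value of 10 genes of slow myofibres such as Tnnt1 and Tnnc1, 8 of 58 members (13.8%) were called, 7 higher and 1 lower, against 3.84% of all features (1.83% higher and 2.01% lower). Those higher were Bag2 (partial r = 0.432), Hspb7 (0.403), Dnaja4 (0.398), Bag1 (0.372), Hspb6 (0.327), Hspa1l (0.323) and Hsp90b1 (0.306), and Dnajc27 was lower (-0.336). Of the 6 measured muscle small heat shock members, Hspb7 and Hspb6 were thus higher with slow fibre genes. Without the run factor the partial r of Hspa1l, Hsp90b1 and Dnajc27 was -0.0226, -0.0333 and 0.0381, and with the first 5 array-wide components removed 2 members were called.

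Along an immediate early score, the mean z value of 15 genes such as Ier2, Egr1 and Btg2, 7 of 58 members (12.1%) were called, all higher, against 2.05% of all features (1.55% higher). They were Dnajb1 (partial r = 0.7), Hspa1a (0.675), Hspb1 (0.508), Hsp90aa1 (0.477), Dnaja4 (0.416), Hspa2 (0.343) and Bag3 (0.309). All 7 are Hspa1a itself or members called along Hspa1a, in the same mice, so the fits are not independent. None of the 7 mitochondrial or 9 endoplasmic reticulum members was called by limma. At an unadjusted p under 0.05, with no minimum on r, 2 of the 7 and 2 of the 9 passed, against 32.7% of all features. Without the mice numbered 51 to 90 and 271 to 310, 3 members were called.

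The mitochondrial members had a median SD close to that of all members, and r between the pairs examined was low. Hspa9 (mortalin, the matrix Hsp70) ranged from -0.80 to 0.85 with a median of 0.06, and Hspe1 (Hsp10, the lid of the chaperonin) from -1.11 to 0.75 with a median of -0.14. Hspd1 (Hsp60, the chaperonin ring) ranged from -0.48 to 0.41 with a median of 0.07. Hspd1 and Hspe1 are transcribed in opposite directions from 1 shared stretch of chromosome 1, and that stretch is shown because both genes are read from it. The Hspe1 window on the plus strand, chr1:55087898-55088147, overlaps an Hspd1 window on the minus strand, chr1:55087933-55088182, and capitals mark overlapping copies of GAANNTTC on either strand.
Hspe1: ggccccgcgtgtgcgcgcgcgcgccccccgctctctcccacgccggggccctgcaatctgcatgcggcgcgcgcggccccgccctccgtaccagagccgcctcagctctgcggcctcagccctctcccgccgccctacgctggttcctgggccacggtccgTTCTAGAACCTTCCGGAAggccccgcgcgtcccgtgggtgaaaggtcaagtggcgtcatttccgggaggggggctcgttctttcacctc
It held the 3-repeat heat shock element, GAA, TTC and GAA with 2 bases between neighbours, or the same on the other strand, which 0.466% of all windows held, and among members this was found in 4 of 63 windows (6.35%), those of Hspd1, Hspe1 and Dnajb6. These 4 windows are not separate sites, since the Hspd1 and Hspe1 windows overlap over the element and the 2 Dnajb6 windows share theirs. They hold 3 distinct positions of it, some overlapping, against 145 over all windows. Every 3-repeat element contains the 2-repeat one, so the counts overlap.

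Hspd1 and Hspe1 correlated at r = 0.0493 and rho = 0.0325 over 285 mice (adjusted p = 0.436 and 0.586), at 0.0539 without 2 mice and at 0.219 with run means removed (adjusted p = 0.000285 for r). With the first 5 array-wide components removed r was 0.293 (permutation adjusted p = 1.36e-05). It was 0.266 in the 143 lower-numbered mice and 0.153 in the 142 higher-numbered ones (permutation adjusted p = 0.00225 and 0.0885). Hspd1 with Hspa9 gave r = 0.156 and rho = 0.131 (adjusted p = 0.0117 and 0.037), 0.158 without 2 mice and 0.0671 with run means removed (adjusted p = 0.278). The Hspd1 value is the mean of 11 probes that disagreed: their pairwise r ran from -0.226 to 0.980 with a median of 0.133. Single Hspd1 probes had SDs from 0.103 to 0.684, against 0.142 for their mean. With run means removed, 1 of the 11 probes reached r = 0.3 with Hspe1, at 0.593, and 0 reached it with Hspa1a. The 2 Hspe1 probes correlated at 0.964. Along Hspd1, 8 of 57 other members (14.0%) were called, 6 higher and 2 lower, against 5.84% of all features (3.68% higher and 2.16% lower), led by Dnaja1 (0.406) and, in the other direction, Dnajc4 (-0.395). That count was 1 with the single Hspd1 probe of largest SD and 24 with the mean of only those probes that had r of at least 0.7 with another Hspd1 probe, so it depends on the probes.

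The same holds for other members with several probes. The 11 probes of Hspa8 had pairwise r from -0.288 to 0.979 with a median of 0.226, and 5 of them correlated with Hspa1a at 0.3 or more with run means removed. For Dnaja1, 3 of 4 probes did. The 2 probes of Bag6, a chaperone for tail-anchored proteins, correlated at -0.427 and those of Dnajc8 at -0.129, so the mean of each is of doubtful meaning. The 2 probes of Hspa1a correlated at 0.882 and those of Dnajc2 at 0.973.

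In the endoplasmic reticulum, Hspa5 (BiP) ranged from -0.96 to 0.82 with a median of -0.27, Dnajc3 (p58IPK, a J-domain partner of BiP) from -0.84 to 0.79 with a median of -0.10, and Hsp90b1 (Grp94) from -0.79 to 0.63 with a median of -0.08. No mouse was 2-fold from the pool for any of these 3. Hspa5 correlated with Dnajc3 at r = 0.588 and rho = 0.571 (0.565 without 2 mice, 0.484 with run means removed) and with Hsp90b1 at r = 0.449 and rho = 0.463 (0.460 and 0.345). Both had a permutation p of 1e-05, the smallest that 100000 shuffles can give, and an adjusted p of 1.87e-05 for r. With the first 5 array-wide components removed, r was 0.262 with Dnajc3 and 0.325 with Hsp90b1 (adjusted p = 1.36e-05 each). In the 142 higher-numbered mice these were 0.294 and 0.317 (adjusted p = 0.000825 and 0.000536). Dnajc3 and Hsp90b1, a pair that was not tested, had r = 0.285 with run means removed. Hspa5 and Dnajb9 (ERdj4, another J-domain partner) correlated at r = -0.0175 and rho = -0.0461 (adjusted p = 0.769 and 0.471), -0.0087 without 2 mice, 0.143 with run means removed (adjusted p = 0.0223) and 0.427 with the first 5 array-wide components removed (adjusted p = 1.36e-05). For this pair the sign depended on how array-wide variation was treated, and with 5 components removed its r was above those of Hspa5 with Dnajc3 and Hsp90b1.

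Hspa5, Hsp90b1 and Dnajc3 share a motif in their promoter windows, which are shown for that reason. The endoplasmic reticulum stress element, CCAAT and CCACG with 9 bases between them on either strand, is the site known for factors of the unfolded protein response. It was found in 0.113% of 32851 windows and in 3 of 63 member windows (4.76%), those of Hspa5, Hsp90b1 and Dnajc3. The Hspa5 window is on the plus strand at chr2:34771840-34772089, the Hsp90b1 window, with 2 copies, on the minus strand at chr10:86705445-86705694 and the Dnajc3 window on the plus strand at chr14:118937682-118937931. Capitals mark the element.
Hspa5: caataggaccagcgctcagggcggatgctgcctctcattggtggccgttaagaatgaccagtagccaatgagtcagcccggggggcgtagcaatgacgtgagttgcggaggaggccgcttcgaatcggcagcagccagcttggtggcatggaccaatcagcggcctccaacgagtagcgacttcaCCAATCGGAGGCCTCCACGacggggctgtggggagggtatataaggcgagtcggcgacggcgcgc
Hsp90b1: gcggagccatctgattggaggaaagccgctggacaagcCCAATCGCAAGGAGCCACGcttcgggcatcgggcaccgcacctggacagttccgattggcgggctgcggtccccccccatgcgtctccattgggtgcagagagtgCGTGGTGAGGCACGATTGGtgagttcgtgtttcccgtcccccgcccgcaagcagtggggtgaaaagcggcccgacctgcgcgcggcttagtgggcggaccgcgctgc
Dnajc3: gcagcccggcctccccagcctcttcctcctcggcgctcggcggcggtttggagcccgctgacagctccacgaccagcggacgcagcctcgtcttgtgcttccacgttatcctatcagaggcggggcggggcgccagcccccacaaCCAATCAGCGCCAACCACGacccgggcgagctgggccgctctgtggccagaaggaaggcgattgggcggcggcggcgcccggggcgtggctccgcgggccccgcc
The Dnajb9 window held no copy of these letters.

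Along Hspa5, 22 of 57 other members (38.6%) were called, 9 higher and 13 lower, against 36.5% of all features (21.3% higher and 15.2% lower), so the share of members was near the background. Of the other 8 endoplasmic reticulum members 3 were higher, namely Dnajb12 (0.538), Dnajc3 (0.484) and Hsp90b1 (0.345), and Dnajb11 (ERdj3) was lower (-0.340). The mitochondrial J-domain gene Dnaja3 (-0.564) and Bag3 (-0.450) were among the lower ones, and Hspe1 among the higher (0.536). Unfolded protein response genes outside the family gave 0 higher and 2 lower of 12, Sdf2l1 and Herpud1. Of the 56 cell type markers 10 rose and 2 fell, including 3 of 5 white fat markers higher, and their part in the result was not tested. With the first 5 array-wide components removed from the tested genes 1 member was called, and among the 142 higher-numbered mice 9 were.

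The constitutive cytosolic group had a low median SD but held 2 of the widest members, Dnajc7 and Dnaja4. Dnajc7, a J-domain protein with tetratricopeptide repeats that binds Hsp70 and Hsp90, ranged from -1.44 to 1.55 with a median of 0.00 and an SD of 0.61, the third widest of the 58. It was 2-fold above the pool in 17 mice and 2-fold below in 10, and no member had an r beyond 0.5 in size with it. Dnaja4 ranged from -1.32 to 1.90 with a median of -0.09. Hspa14 had the smallest SD of all members, 0.106, with values from -0.26 to 0.37. Dnajb3, a J-domain gene known from testis, ranged from -1.41 to 1.35 with a median of 0.07, and its largest r in size with any member was -0.288.

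Single mice carried the extremes of several members at once. The highest value of 3 or more members, or the lowest value of 3 or more, fell in 7 mice. Mice that reached 3 only by adding both kinds, such as mouse number 335, were not counted. Mouse number 67 had the highest value of 5 members from 3 compartments, namely Hsp90aa1 (2.00) and Dnaja1 (0.91) of the cytosol, Hsp90b1 (0.63) of the endoplasmic reticulum, Hspe1 (0.75) of mitochondria and the Hsp110 gene Hspa4l (1.24). Its Hspa1a was 2.64 and its Hsph1 1.31, both far above the medians of these genes, while the SD of its array, 0.231, ranked only 252 of 285. Mouse number 134 had the lowest value of 6 members, among them Dnajc7 (-1.44), Bag3 (-1.57) and Hspb6 (-1.09), and its array had an SD of 0.524, rank 6 of 285. Mouse number 207 had the lowest value of 4 members, Hsp90aa1, Hsp90b1, Hspa9 and Hspa13, on an array with an SD of 0.244, rank 229. The other 4 were mice 161, 314, 330 and 342, whose arrays ranked 24, 14, 9 and 3 in SD. So 5 of the 7 were on arrays among the 24 of widest spread, and mice 67 and 207 were not; the part of array spread in these extremes was not tested.

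The remaining members of the endoplasmic reticulum stayed close to the pool in most mice. Hspa13, an atypical Hsp70, ranged from -0.87 to 0.95 and Dnajb11 from -1.24 to 0.82. Dnajc10 ranged from -0.65 to 0.93, Dnajb9 from -0.63 to 0.91 and Dnajc1 from -0.50 to 0.86, with Dnajb12 narrowest at -0.35 to 0.52. Among mitochondrial J-domain genes, Dnajc11 reached 1.42 in 1 mouse, while its 95th percentile was 0.48, and Hspa12a, a distant Hsp70 relative, reached 1.34 against a 95th percentile of 0.22. Such a value rests on 1 array and 1 probe each.

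Most chaperone genes shifted along the mouse number, as most genes did. Across 16 runs of 20 numbers, 50 of 58 members (86.2%) were called by limma's F test at adjusted p under 0.05 with at least 10% of the variance between runs, against 80.5% of all features. The labels do not say what the number stands for. The share of variance between runs was 46.1% for Hspb3 (limma adjusted p = 2.65e-27), 43.8% for Hsp90b1 and 43.1% for Hspbp1, an Hsp70 nucleotide exchange factor. It was 42.6% for Bag5, 39.8% for Dnajc12, and 39.1% each for Hsp90aa1 and Dnaja2. The run median of Hspb3 was 0.26 at numbers 51 to 70 and -0.48 at 251 to 270. The run median of Hsp90b1 was 0.18 and -0.36 at the same numbers. For Hspa1a the share was 26.0%, and its run medians were 1.03 at 271 to 290 and 1.64 at 291 to 310, against -0.74 to 0.30 in the other 14 runs. Dnajb1 had run medians of 0.90 and 0.76 there, Hsp90aa1 of 0.05 and 0.08. Of the 47 mice with Hspa1a at least 2-fold above the pool, 22 were among the 40 numbered 271 to 310 and 25 among the other 245. This number range was chosen after its values were seen. Outside 51 to 90 and 271 to 310, 7 members were still called along Hspa1a, and Hspa1a and Dnajb1 correlated at r = 0.720 over 209 mice.

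**Figure D4:**
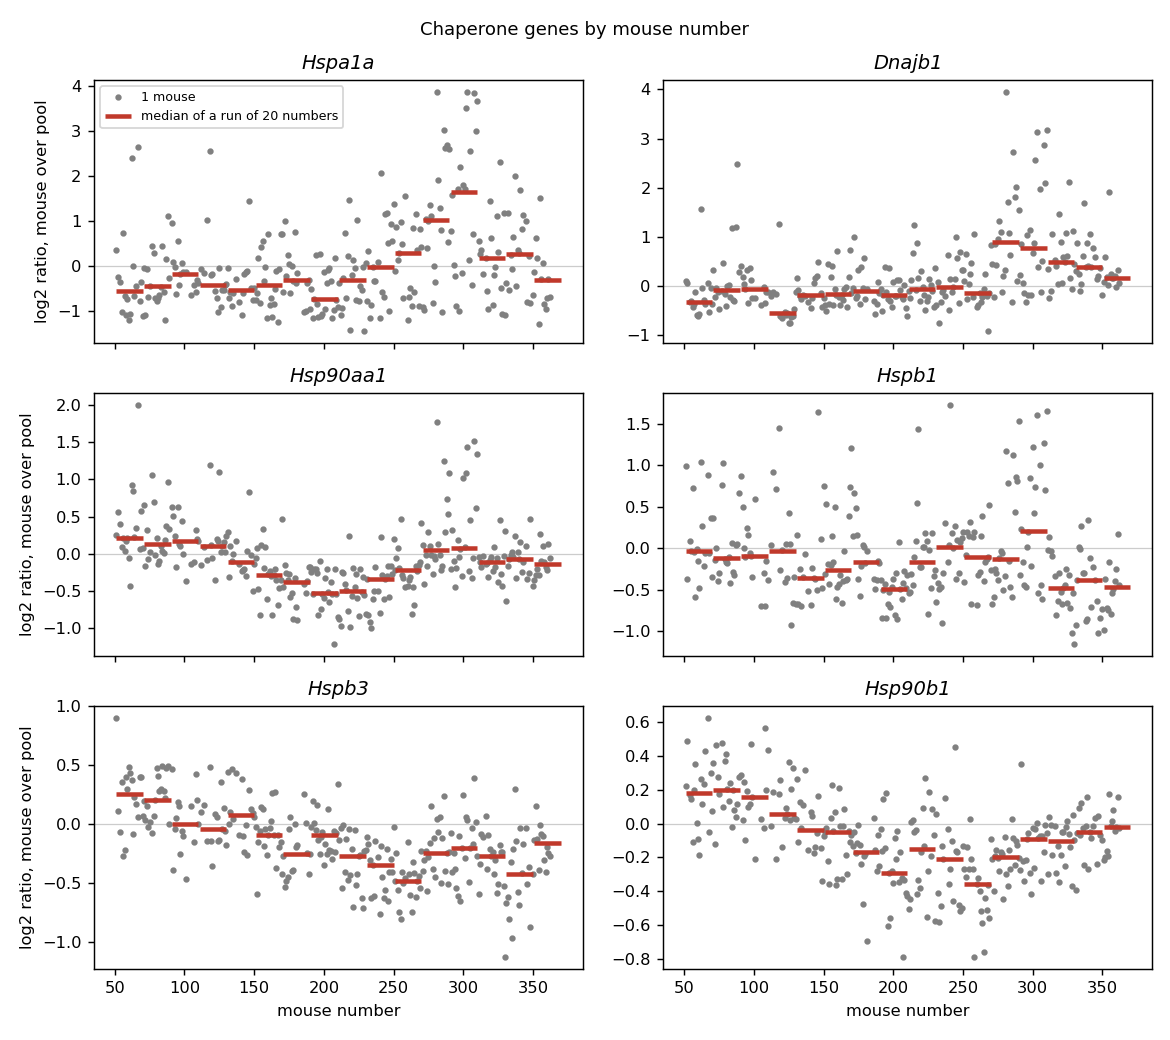
Log2 ratio of mouse over pool against mouse number for 6 chaperone genes; dots are mice and red bars the median of each run of 20 numbers. Hspa1a and Dnajb1 have their highest run medians between numbers 271 and 310, while Hspb3 and Hsp90b1 are highest at the lowest numbers.

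Some members varied with genes of their own chromosome rather than with other chaperones. For each of 10921 named genes with a known chromosome, the 20 other genes with the largest r in size were taken, with run means removed, and those on the same chromosome were counted. The median gene had 1 of 20. Hspa9 had 15 of 20 on chromosome 18, which holds 2.40% of the placed genes, and 1.40% of all genes reached a count as high. Dnajb5, a cytosolic J-domain gene on chromosome 4, had 12 (1.90% of genes reached this), Dnajc10, the ERdj5 disulphide reductase gene on chromosome 2, had 11 (2.09%) and Bag5 on chromosome 12 had 9 (2.72%). With the first 5 array-wide components removed these counts were 19, 15, 18 and 14, where the median over all genes was 1 and the 95th percentile 10. These 4 were named after their counts were seen, and genotypes were not analysed here. The Bag5 value is the mean of 2 probes that correlated at 0.28.

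The genes nearest to Hspa9 in pattern were Hars, a histidyl-tRNA synthetase gene (r = -0.738), Zfp24 (-0.695) and the growth factor gene Hbegf (-0.688), with Kcnn2, a potassium channel gene (0.640), first of the positive ones. Sil1, whose product is a nucleotide exchange factor of BiP, also lies on chromosome 18 and had r = 0.562. The genes nearest to Dnajb5 were Ccl27a (-0.692) and Alad (0.581), those nearest to Bag5 were Mark3 (0.674) and Klc1 (-0.633), and those nearest to Dnajc10 were Aqr and Spata5l1 (-0.584 each). Both signs occurred for all 4 members. The largest r in size of Hspa9 with another chaperone gene was 0.292, with Hspe1.

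**Figure D5:**
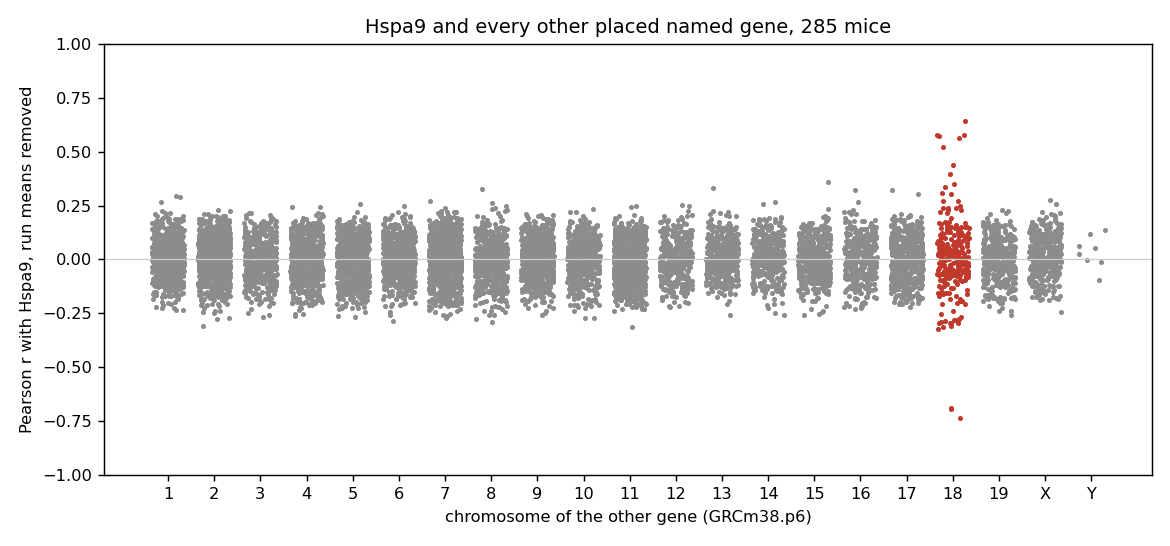
Pearson r with Hspa9 over 285 mice, run means removed, for every other placed named gene by chromosome; each dot is a gene, spread sideways at random within its chromosome, and chromosome 18, which holds Hspa9, is in red. The values beyond 0.4 in size are on chromosome 18, from -0.738 for Hars to 0.640 for Kcnn2.

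Among the 10 measured genes on each side of a member, the median r in size was highest for Dnajc4 (0.397), Dnajb12 (0.319) and Dnaja3 (0.317), where the median over all genes was 0.141. With the first 5 array-wide components removed these were 0.217, 0.0898 and 0.0949, at percentiles 99.5, 54.4 and 60.5 of all genes, so Dnajc4 alone of these 3 stayed near the top.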

How the data were processed

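Muscle RNA of 285 mice was measured on 2-colour arrays, 1 array per mouse. The deposited values are the authors' processed log10 ratios, a base read from bounds at exactly 2 and -2 on the deposited scale and not given in the sources used here. Array medians lay between -0.0222 and 0.0173, so the authors had centred or normalised the deposited arrays by steps not given in the sources used here. Labelling was with an automated aminoallyl amplification, per the labels' protocols.

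Of 23560 probes, 23510 with values on at least 80% of arrays were kept, and the 0.0972% of missing values were set to the probe mean. Values were converted to log2. Symbols came from the platform annotation, and 12650 probes took a current symbol by Entrez number; 13653 had 1 symbol, 48 several (not named) and 9859 none. Probes of a gene were averaged, giving 21512 features.

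Fits used limma 3.58.1 in R 4.3.3 over all features, with a factor for the run of 20 mouse numbers and Benjamini-Hochberg adjustment; a call needed adjusted p under 0.05 and a partial r of at least 0.3 in size. In simulated data along Hspa1a this called 0, 14, 46 and 50 of 50 genes with true r of 0.2, 0.3, 0.4 and 0.5. That true r was set with Hspa1a itself, before the run factor, whereas calls use the partial r. The simulated noise was normal, independent between genes and without run effects, so these rates need not hold for the measured genes. Pairs used 100000 shuffles, which treat mice as exchangeable, so values with run means removed stand beside them. No index or pair gene fell into separate clusters by a normal mixture (BIC gain over 10, means over 3 SD apart, at least 5% of mice in each), so all mice were used. Members named were those of the pairs, the 10 of largest SD and up to 10 called per fit; other genes were the 10 most like Hspa1a and up to 4 per list. Members outside this rule (such as Hspa14, Hspa13, Dnajc1, Dnajc10, Dnajc11, Hspa12a, Dnajb2, Dnajb5 and Bag5) and the genes nearest to Hspa9, Dnajb5, Bag5 and Dnajc10 were named after their values were seen. The members and lists were chosen with earlier results of these data known. The number of arrays limits precision; no signal or background intensity was used.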

Additional observations from a re-analysis of the deposited data

How the results depend on the processing

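Recomputed with only the largest-SD probe of each gene, arrays scaled to equal SD, without 6 arrays of outlying spread, with the first 5 array-wide components removed, in 143 lower-numbered and 142 higher-numbered mice, in the 209 mice outside numbers 51 to 90 and 271 to 310, without the run factor, and, added after seeing the data, with concordant probes only and without the 4 arrays with (2) in their title, the number of members called along Hspa1a stayed between 7 and 12 and that of pairs passing between 8 and 13. Along Hspa5 the main count of 22 was 1 with 5 components removed and 9 in higher-numbered mice. Along Hspd1 the main count of 8 was 1 with the largest-SD probe, 24 with concordant probes, 5 with 5 components removed, 4 in lower-numbered mice, 14 in higher-numbered mice and 5 outside the 2 number ranges. Along Hspb6 the 14 became 4 with 5 components removed and 7 in higher-numbered mice; along the slow fibre score the 8 became 2 with 5 components removed; along the immediate early score the 7 became 3 outside the number ranges. Here and above, recounts under other settings stand without the share of all features called in the same setting. They therefore do not compare members with other features. Read in base 2, the members' median SD would be 0.069. Partial r turned sign along Hspa5 with 5 components removed for Dnaja3 (0.0635), Dnajb12 (-0.0056), Bag3 (0.0717), Hspa12b (-0.0204), Dnajc5 (-0.081) and Hspb6 (0.0218), and for Bag3 in higher-numbered mice (0.102). It did so along Hspd1 with the largest-SD probe for Dnaja1 (-0.0305), Dnajc4 (0.0405), Dnajc28 (-0.076), Hspa8 (-0.0943), Dnajb6 (-0.000689), Dnajc2 (-0.0536) and Hspa4l (-0.0591). It did so along Hspb6 in higher-numbered mice for Hspe1 (0.0312), and along the slow fibre score without the run factor for Dnajc27 (0.0381), Hspa1l (-0.0226) and Hsp90b1 (-0.0333). Among pairs, r turned sign for Hspa1a with Hspd1 (-0.0617) and Hspd1 with Hspa9 (-0.105) with the largest-SD probe, for Hspd1 with Hspe1 with concordant probes (-0.0793), for Hspd1 with Hspa9 in lower-numbered mice (-0.0365), and for Hspa1a with Hspa5 with 5 components removed (0.248), in lower-numbered mice (0.0957) and with run means removed (0.0299). For Hspa5 with Dnajb9 it did so on scaled arrays (0.00852), with 5 components removed (0.427), in lower-numbered (0.14) and higher-numbered mice (0.116), outside the number ranges (0.033) and with run means removed (0.143). The cause was not tested, except that fewer mice enter the number splits. Of the other values of single members 510 kept direction and call and 82 lost the call; of those of pairs 121 kept both, 8 gained and 8 lost the call. An alternative over all mice in place of a larger cluster did not apply, since no clusters were found. No paired analysis was possible because there is 1 group and mouse numbers pair no samples. Signal over background is unknown.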
